A study of Mus musculus with 12 samples.

Results

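The rows described here are 5 of the 57010 rows of the deposited count tables that hold, or are estimated to hold, reads of the poly(A)-binding protein Pabpc1 and of ribosomal protein genes. The rows labelled Pabpc1 (ENSMUSG00000022283), Rpl30 (ENSMUSG00000058600) and Rps20 (ENSMUSG00000028234) carry the names of translation genes. The rows labelled Caskin1 (ENSMUSG00000033597) and Dennd5a (ENSMUSG00000035901) were included because their exons, moved along the chromosome by a displacement fitted to the counts, fell on Rps2 and Rpl27a. The rows were chosen by their labels and, through the displacements, by their levels averaged over all libraries, so the levels are given as a description. They were in addition proposed with results of these data known.

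The cells were BV2, a mouse microglial cell line, and every group had received extracellular vesicles, small membrane particles released by other BV2 cells, for 24 h before RNA was taken. The 12 libraries form 4 groups of 3, named after what the vesicle-releasing cells had been given. These are control_EV (no agent named), LPS_EV (lipopolysaccharide, a bacterial cell wall component), TGFB_EV (TGF-β) and IL10_EV (IL-10). No group of cells without vesicles was used here, BV2 is a single line, and the labels do not say that the 3 libraries of a group are separate cultures, although the design text speaks of wells dosed singly. The spread behind the p-values may therefore be technical.

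PABPC1 coats the poly(A) tails of cytoplasmic mRNAs and binds the initiation factor eIF4G at the cap, which favours translation and guards the mRNA from decay. Ribosomal proteins form, with ribosomal RNA, the small subunit (RPS proteins), which decodes the mRNA, and the large subunit (RPL proteins), which joins amino acids. mRNAs of ribosomal proteins, of PABPC1 and of several elongation factors begin with a terminal oligopyrimidine (TOP) tract, a run of C and T at the 5′ end, through which mTOR and LARP1 control their translation together. Such control acts on the use of mRNA by ribosomes, and counts per row measure only the amount of RNA.

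The row labels of these tables do not by themselves say which gene was counted. Among rows labelled with ribosomal protein genes other than the rows described, 88 in number, the median level was 0.0871 CPM (counts scaled to an equal library total), 22 had no counts and 59 lay under 1 CPM. The displaced exons of 37 other rows met ribosomal protein genes, and their median was 876 CPM. A gene is called met here where its exons and the moved exons of a row share at least 100 bp. Ribosomal protein and other translation genes earned no reward in the fit of the displacements, which rewarded overlap with 431 other widely expressed genes. A row with counts was however spared a penalty by meeting any protein-coding exon, so these levels are not free of the fit, and Ndufb10 and Aldoa, named below, were among the rewarded genes.

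Pabpc1 lies on the minus strand of chromosome 15 (GRCm38, 36595661 to 36609668) with 6540 bp of exon in the GENCODE M21 annotation. The fitted displacement of its stretch of 877 rows was -200 bp, and at that position the row still met 4365 bp, or 66.7%, of the exons of Pabpc1. Rpl30 lies on the minus strand of the same chromosome (34440505 to 34443640), in the same stretch, and its row met 2704 bp of its own exons, 89.5% of them. The Rps20 row (chromosome 4, 3831334 to 3835665, minus strand) had a displacement of 200 bp, with values from 100 to 300 bp scoring alike, and met 3680 bp of Rps20, or 90.2%. For these 3 rows the label and the gene met therefore name the same gene.

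The Caskin1 gene itself, which encodes a scaffold protein of neuronal synapses, lies on the plus strand of chromosome 17 from 24488601 to 24508671. Its stretch of 1113 rows was displaced by 219000 bp, with values from 218900 to 219100 bp scoring alike. At 219000 bp the moved exons met 905 bp (49.5%) of the exons of Rps2 (24718116 to 24721929, plus strand) and 431 bp (35.4%) of those of the neighbouring gene Ndufb10 (24722060 to 24724478, minus strand), a subunit of respiratory complex I. Over the tied values the overlap ran from 854 to 977 bp for Rps2 and from 381 to 501 bp for Ndufb10. Smaller overlaps were with Rnf151, 134 bp, and with the non-coding RNA genes Snora64, 134 bp, Snora78, 96.1% of its length, and Snhg9, 152 bp. Reads of Rps2 and of Ndufb10 cannot be told apart within this row.

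The gene Dennd5a, a regulator of membrane traffic, lies on the minus strand of chromosome 7 from 109893780 to 109960470. Its stretch of 590 rows was displaced by -401000 bp, with -400900 bp scoring alike. There the moved exons met 822 bp (29.6%) of Rpl27a (109519147 to 109522367, plus strand), 432 bp (4.3%) of Trim66 (109449006 to 109508134, minus strand) and 140 bp of St5. The support of this stretch was the weakest of those concerned, with a score 14 above the best displacement more than 100 steps of 100 bp away, against 30 for the stretch of Pabpc1 and Rpl30, 72 for that of Caskin1 and 84 for that of Rps20. No other placed row of at least 1 CPM met Pabpc1, Rpl30, Rps20, Rps2, Ndufb10, Rpl27a or Trim66.

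**Figure D1:**
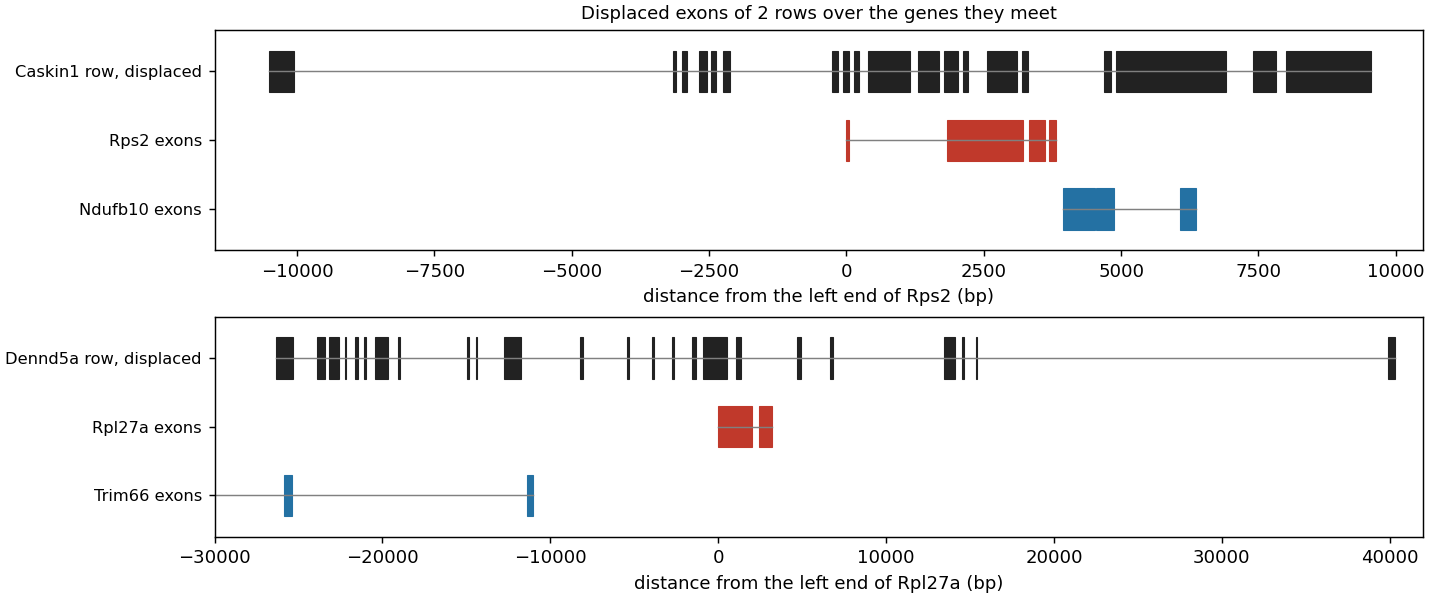
Exons of the Caskin1 row (top) and of the Dennd5a row (bottom) after displacement, drawn as black boxes above the exons of the genes they meet, with distance in bp from the left end of Rps2 or Rpl27a on the horizontal axis. The moved Caskin1 exons cover 905 bp of Rps2 and 431 bp of Ndufb10, and the moved Dennd5a exons cover 822 bp of Rpl27a and 432 bp of Trim66; the Trim66 gene runs on past the left edge.

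The TOP tract is the feature through which these mRNAs are known to be controlled together. Sequence is therefore shown at the start of Rpl27a and just after the start of Rps2, the genes reached by displacement. It is taken from RefSeq promoter sequences of build GRCm38.p6, 5′ to 3′ on the plus strand. Capitals mark unbroken runs of at least 8 C or T. For Rpl27a the 30 bases before and 20 bases after the start are given (chr7:109519165-109519214), and for Rps2 bases 21 to 50 after the start (chr17:24720083-24720112), where its runs lie.
Rpl27a: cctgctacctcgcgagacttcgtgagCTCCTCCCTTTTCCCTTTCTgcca
Rps2: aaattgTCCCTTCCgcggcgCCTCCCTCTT
The longest run was 20 bases in Rpl27a and at least 10 bases in Rps2, where it ends at the edge of the window and of the entry. In the window from 30 bases before to 50 bases after the start, a run of at least 8 was found in 55 of 79 ribosomal protein promoters (69.6%) and in 9527 of 32851 promoters in all (29.0%), counted on the strand of the gene; the longest run had a median of 10 and 6 bases. The longest run in that window was 7 bases for Ndufb10 and 12 bases for Trim66. A run is a match of letters and does not show that the mRNA starts there. The bases at the annotated start of Rps2 are not printed, so its runs are not shown to be a TOP tract. Of the 5 genes held or met, Rps2 and Rpl27a had an entry in the table of promoters and Pabpc1, Rpl30 and Rps20 were not matched.

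The libraries held from 10497757 to 13647007 counts in all, and 3 counts are worth 0.220 to 0.286 CPM. The 5 rows together took between 3.36% and 3.54% of all counts in a library, and the lowest count of any of them was 17277, for Rps20 in LPS_EV replicate 3. For rows whose displaced exons met microglia and macrophage marker genes, 10 of 13 lay at 100 CPM or more. Among them were rows that met Tyrobp (779.6 CPM), Csf1r (379 CPM) and Spi1 (359 CPM). These also met neighbours, Hcst and Nfkbid beside Tyrobp, Hmgxb3 beside Csf1r and Mybpc3 beside Spi1. The summed level of the 13 rows was 2726 to 2864 CPM over the groups. Rows that met Aif1 (15.1 CPM) and P2ry12 (0.157 CPM), a marker of resting microglia, were low. The summed levels were 0.291 CPM for 4 astrocyte rows, 0.574 CPM for 6 fibroblast rows, 0.0132 CPM for 1 neuron row and 8.29 CPM for 4 oligodendrocyte rows. Within groups, TGFB_EV replicate 3 and IL10_EV replicate 2 stood apart: the chi-square per degree of freedom between replicates was 17.2 and 31.1 for the pairs with TGFB_EV replicate 3, against 6.24 between the other two, and 34.6 and 46.8 for the pairs with IL10_EV replicate 2, against 9.10. Control_EV and LPS_EV pairs lay between 4.51 and 9.14.

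The poly(A)-binding protein row was the most abundant of the rows described and, over the 12 libraries, the most even. Pabpc1 ranked 3 of all rows by its mean share of the counts, 2.04%, and varied by 2.62% (coefficient of variation, CV) over the 12 libraries, where counting error alone would give 0.202%. Within groups the CV was 3.04% for Pabpc1, above the 2.52% of the Rps20 row. All levels of the 5 rows are CPM after TMM scaling, a correction for library composition. In bulk RNA, fewer cells of a type and less RNA per cell cannot be told apart. The levels of Pabpc1 were 19468.5, 21028 and 20459 CPM in control_EV replicates 1, 2 and 3, and 19663, 21079 and 20560.4 CPM in LPS_EV. They were 20897, 20108.5 and 20500.3 CPM in TGFB_EV and 19909.8, 20915 and 20443 CPM in IL10_EV. The 4 groups overlapped, and the highest library exceeded the lowest 1.08-fold. Of 137 rows with a mean of at least 1000 CPM, 5 had a lower CV than Pabpc1; their median CV was 4.99%, within a range of 1.83% to 26.95%. The group means were 20318.5 ± 789 CPM for control_EV, 20434 ± 716 for LPS_EV, 20502 ± 394 for TGFB_EV and 20423 ± 503 for IL10_EV (SD, n = 3 each), a span smaller than the SD of control_EV.

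Of the small subunit, Rps20, which sits in the head of the subunit, was measured under its own label. Its levels were 1708, 1605 and 1601 CPM in control_EV and 1624 (replicate 1), 1642 and 1549 CPM in LPS_EV. In TGFB_EV they were 1594, 1599.9 and 1594 CPM, and in IL10_EV 1705.5, 1658 and 1689.7 CPM. The TGFB_EV libraries lay close together, just below the lowest control_EV library. The mean was 1684.5 ± 24.0 CPM in IL10_EV (SD, n = 3), above 1638 ± 61.0 in control_EV, 1605 ± 49.6 in LPS_EV and 1596 ± 3.39 in TGFB_EV. All IL10_EV libraries lay above all libraries of LPS_EV and TGFB_EV, and they overlapped with control_EV. Over the 12 libraries the CV was 3.09%.

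The row labelled Caskin1 met Rps2, a small-subunit protein near the mRNA entry channel of the ribosome, and also Ndufb10. The levels of this row were 7026, 6696 and 6587 CPM in control_EV replicates 1, 2 and 3 and 6893, 6577 and 6366 CPM in LPS_EV. In TGFB_EV they were 5604.5, 5157 and 6245 CPM, and in IL10_EV 5816, 6323 and 6586 CPM. The TGFB_EV libraries all lay below all libraries of control_EV and LPS_EV, replicate 3 nearest to them, and IL10_EV replicate 1 lay among the TGFB_EV values while IL10_EV replicate 3 lay just below the lowest control_EV library. The group means were 6769.7 ± 228 CPM for control_EV, 6612 ± 265 for LPS_EV, 5669 ± 547 for TGFB_EV and 6241 ± 391 for IL10_EV (SD, n = 3 each). This row varied most of the 5, with a CV of 8.67% over the 12 libraries, a highest library 1.36 times the lowest, and 107 of the 137 rows of at least 1000 CPM at a lower CV.

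Of the large subunit, Rpl30 was measured under its own label. It ranged over 2148, 1895 and 1815 CPM in control_EV, 1941, 1933 and 1825 CPM in LPS_EV, 1912, 1867 and 1904 CPM in TGFB_EV, and 2017, 1863 and 1939 CPM in IL10_EV. Control_EV replicate 1 was the highest of the 12 libraries and gave its group the widest spread. The group means were 1953 ± 174 CPM for control_EV, 1899.7 ± 64.6 for LPS_EV, 1894 ± 24.0 for TGFB_EV and 1939 ± 77.1 for IL10_EV (SD, n = 3 each), and the groups overlapped. The CV over the 12 libraries was 4.69%, near the median of abundant rows.

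The row labelled Dennd5a, which met Rpl27a, a protein of the large subunit, and Trim66, a chromatin reader, ranked 12 by its share of the counts. It stood at 4442, 4627 and 4374 CPM in control_EV and 4389.8, 4546 and 4468 CPM in LPS_EV. It stood at 4463, 4303 and 4216 CPM in TGFB_EV and 4624, 4808 and 4419 CPM in IL10_EV. The order of the group means was IL10_EV (4617 ± 195 CPM), control_EV (4481 ± 131), LPS_EV (4468 ± 78.3) and TGFB_EV (4327 ± 125; SD, n = 3 each), and neighbours in this order overlapped. The CV over the 12 libraries was 3.57%. Levels of different rows are not compared here as levels of genes, since the length that was counted for each gene is not known.

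**Figure D2:**
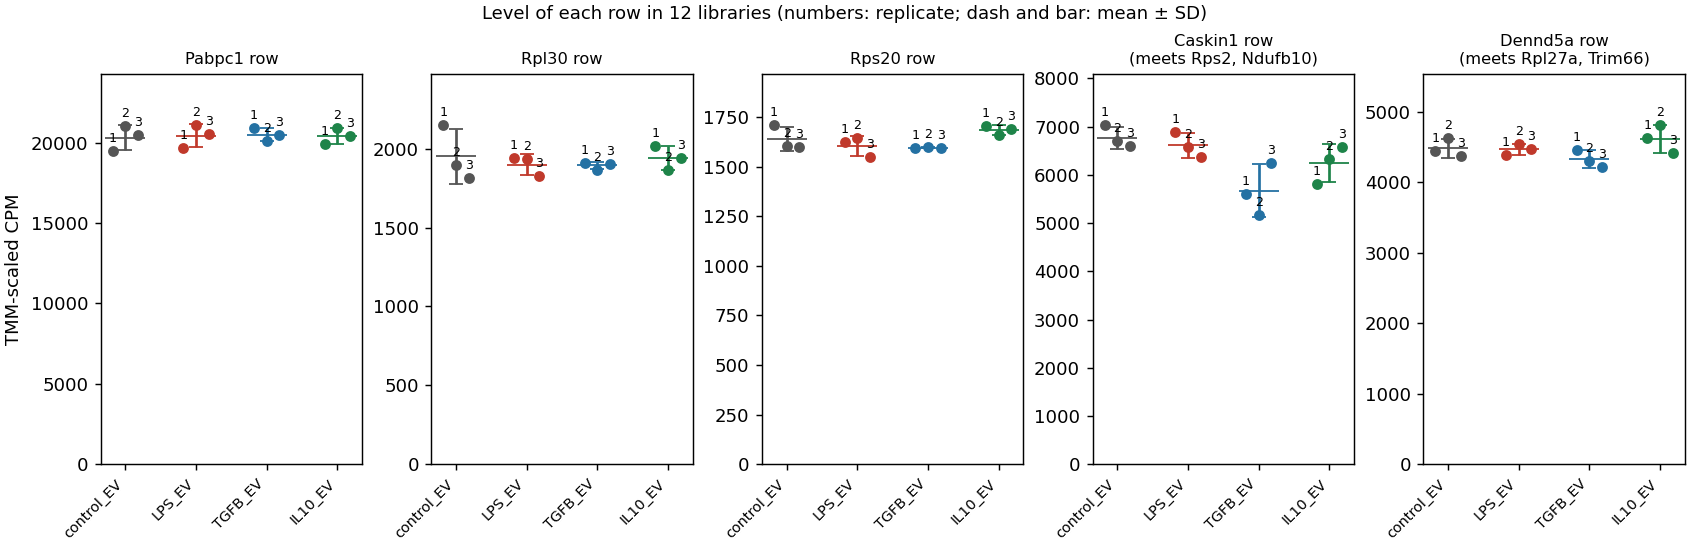
TMM-scaled CPM (vertical axis, from 0, a separate scale for each row) of the 5 rows in the 12 libraries, by group; each point is a library with its replicate number, and the horizontal line and bar give the mean ± SD of 3 libraries. The Caskin1 row is lowest in TGFB_EV replicates 2 and 1 (5157 and 5604.5 CPM), and the Pabpc1 row lies between 19468.5 and 21079 CPM everywhere.

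In recipients of vesicles from LPS-treated cells, the comparison that the design text names, none of the 5 rows passed edgeR's quasi-likelihood F test at a Benjamini-Hochberg adjusted p under 0.05 over all 10523 rows tested, of which 0.817% did; 11.2% had an unadjusted p under 0.05. Pabpc1 differed from control_EV by 0.01 ± 0.04 on the log2 scale (SE, n = 3 against 3 libraries; 95% interval -0.07 to 0.09; adjusted p = 0.962 by edgeR). Rps20 differed by -0.03 ± 0.05 and Rpl30 by -0.04 ± 0.05. The Caskin1 row differed by -0.03 ± 0.04 and the Dennd5a row by -0.0020 ± 0.042. The intervals of all 5 lay between -0.15 and 0.09, and the adjusted p-values of the last 4 by edgeR were 0.888, 0.859, 0.848 and 0.993. In each of the 5 rows the LPS_EV and control_EV libraries overlapped.

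In recipients of vesicles from TGF-β-treated cells, none of the 5 rows was called either, and 0.0380% of 10524 rows were, while 6.23% had an unadjusted p under 0.05. The Caskin1 row had the largest difference of the 5, -0.26 ± 0.06 on the log2 scale, a level 0.836 times that of control_EV (SE, n = 3 against 3 libraries; 95% interval of the ratio 0.765 to 0.915), with an unadjusted p of 0.000745 and an adjusted p of 0.314 by edgeR. It held rank 25 of 10524 rows by p. The result depended on TGFB_EV replicate 3: without that library the difference was -0.33 and the adjusted p by edgeR 0.000201. Of 10768 rows in all, 419 (3.89%) were then called. Left out singly, the other libraries gave differences from -0.28 (control_EV replicate 3) to -0.19 (TGFB_EV replicate 2), none of them called. With no filter on low counts the same difference, -0.25, had an adjusted p of 2.06e-05 by edgeR, where 0.499% of 22249 rows were called. DESeq2 gave a difference of -0.26 with an adjusted p of 0.0990, where 17 of 8789 rows (0.193%) were called.

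For the other 4 rows the TGFB_EV differences were within 0.06 of 0 on the log2 scale. Pabpc1 differed by 0.01 ± 0.04 (95% interval -0.07 to 0.10), Rps20 by -0.04 ± 0.05 (-0.14 to 0.06), Rpl30 by -0.05 ± 0.06 (-0.17 to 0.08) and the Dennd5a row by -0.05 ± 0.04 (-0.15 to 0.04), each with its SE. Their adjusted p-values by edgeR were 0.977, 0.904, 0.909 and 0.862. All 3 TGFB_EV libraries lay below all 3 of control_EV in the Caskin1 and Rps20 rows, as in 5.51% of all rows tested; for Rps20 the gap was narrow, from 1599.9 to 1600.8 CPM.

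In recipients of vesicles from IL-10-treated cells, edgeR called no row, 0% of 10613, while 334 (3.15%) passed an unadjusted p of 0.05. DESeq2 called 1 row, not among the 5. The Caskin1 row differed by -0.12 ± 0.05 on the log2 scale (SE; 95% interval -0.24 to 0.00080; unadjusted p = 0.0513 and adjusted p = 0.9996 by edgeR). Leaving out IL10_EV replicate 1, its lowest library there, brought the difference to -0.07; leaving out IL10_EV replicate 2 brought it to -0.13 and leaving out IL10_EV replicate 3 to -0.16. All 3 IL10_EV libraries lay below all 3 of control_EV, the nearest being 6585.6 and 6587 CPM, as in 4.32% of rows. Pabpc1, Rpl30, Rps20 and the Dennd5a row differed by 0.0066 ± 0.043, -0.01 ± 0.07, 0.04 ± 0.05 and 0.04 ± 0.05, with adjusted p = 0.9996 by edgeR for each.

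The treatments were set against each other in a model of all 12 libraries, in which edgeR called no row of 11267 (0%) in any pair; DESeq2 called 98 rows between LPS_EV and TGFB_EV, 1 between LPS_EV and IL10_EV and 9 between TGFB_EV and IL10_EV, none of them among the 5. With an unadjusted p under 0.05 there were 1442 (12.8%), 634 (5.63%) and 842 (7.47%) rows. The Caskin1 row was 0.22 ± 0.06 higher in LPS_EV than in TGFB_EV (SE; log2; unadjusted p = 0.00236, rank 151; adjusted p = 0.175 by edgeR), with groups that did not overlap, as in 9.83% of rows. Without TGFB_EV replicate 3 that difference was 0.29 and the adjusted p by edgeR 0.0250. Between TGFB_EV and IL10_EV the same row differed by -0.14 ± 0.06 (unadjusted p = 0.0394, adjusted p = 0.646 by edgeR), and the groups overlapped. That difference was -0.21 without TGFB_EV replicate 3 and -0.08 without TGFB_EV replicate 2, with adjusted p-values by edgeR of 0.160 and 0.992.

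Rps20 lay lower in LPS_EV than in IL10_EV by -0.07 ± 0.05 and lower in TGFB_EV than in IL10_EV by -0.08 ± 0.05 on the log2 scale, with adjusted p = 0.917 and 0.719 by edgeR. The groups of this row did not overlap in these 2 pairs, as in 5.09% and 5.13% of rows. The Dennd5a row differed by -0.09 ± 0.04 between TGFB_EV and IL10_EV (adjusted p = 0.671 by edgeR). For Pabpc1 the differences between treatments lay between -0.0048 and 0.0056, with 95% intervals inside -0.09 and 0.09. A difference that misses the threshold does not show that the levels are equal, and the intervals give what the data allow.

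**Figure D3:**
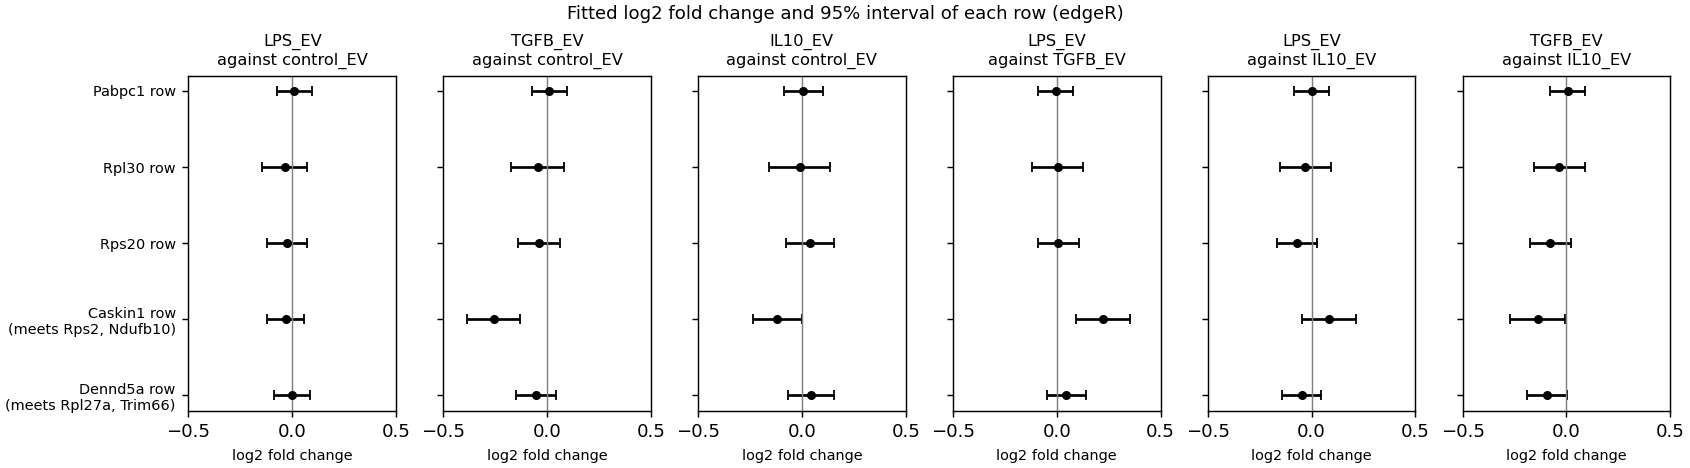
Fitted log2 fold change of each of the 5 rows (points) with its 95% interval (bars) in the 6 comparisons, first group against the second, on a horizontal axis from -0.5 to 0.5. The intervals of the Caskin1 row exclude 0 for TGFB_EV against control_EV, LPS_EV against TGFB_EV and TGFB_EV against IL10_EV before adjustment over all rows; the 3 rows that hold the gene of their label and the Dennd5a row include 0 throughout.

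Within a library, the ratio of the Caskin1 row to the Rps20 row was 4.11, 4.17 and 4.11 in control_EV, 4.24, 4.00 and 4.11 in LPS_EV, 3.52, 3.22 and 3.92 in TGFB_EV and 3.41, 3.81 and 3.90 in IL10_EV. These ratios of all 6 libraries of TGFB_EV and IL10_EV lay below those of all 6 libraries of control_EV and LPS_EV. The ratios of the Caskin1 row to the Pabpc1, Rpl30 and Dennd5a rows overlapped. The Rps20 row itself had its highest mean in IL10_EV (1684.5 CPM), which lowers the ratio there. How often other pairs of rows split the libraries in this way was not counted. Over Pabpc1, for example, IL10_EV replicate 3 had 0.322 and LPS_EV replicate 3 had 0.310. Over Rpl30, TGFB_EV replicate 3 had 3.28 and control_EV replicate 1 had 3.27, and over Dennd5a, TGFB_EV replicate 3 had 1.48 and LPS_EV replicate 3 had 1.42. The ratio shows unequal levels of the rows and not which of them changed. Over the 12 libraries, log2 CPM of the Caskin1 row had a Pearson r between -0.11 and 0.27 with the other 4 rows, whereas Rpl30 and Rps20 had an r of 0.77 and Pabpc1 and Rpl30 an r of -0.61. These are descriptions over 12 libraries that share groups and scaling, with no test.

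The rows whose pattern over the 12 libraries was most like that of the Caskin1 row, among 5061 rows of at least 20 CPM, were 4931422A03Rik (r = 0.98), the Cd2bp2 row, which met Aldoa, a glycolytic enzyme (r = 0.98), and the Kcnip2 row, which met Mgea5, the enzyme that removes O-GlcNAc from proteins (r = 0.97). The Cd2bp2 row stood at 199.5, 178 and 164 CPM in control_EV and 175, 172 and 171 CPM in LPS_EV. It stood at 114, 92.8 and 150.2 CPM in TGFB_EV and 116, 165 and 171 CPM in IL10_EV. The low libraries were thus TGFB_EV replicates 1 and 2 and IL10_EV replicate 1, as in the Caskin1 row. Its TGFB_EV difference was -0.60 ± 0.13 on the log2 scale (SE; adjusted p = 0.254 by edgeR), larger in size than that of the Caskin1 row.

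Among 32 other rows that met ribosomal protein genes, r with the Caskin1 row ran from -0.64 to 0.96 with a median of 0.06. The highest was the Gm20681 row, which met Rpl13, a large-subunit protein; it is singled out after its values were seen. It stood at 3684, 3623 and 3545 CPM in control_EV and 3649, 3565 and 3506 CPM in LPS_EV. It stood at 2379, 1895 and 3309 CPM in TGFB_EV and 2381, 3423 and 3518 CPM in IL10_EV. The same 3 libraries were low again, and TGFB_EV replicate 3 and IL10_EV replicates 2 and 3 lay near control_EV. The TGFB_EV difference was -0.52 ± 0.13 (SE; log2; adjusted p = 0.439 by edgeR). A further row that met Rpl13 beside Cpne7 and Sult5a1, labelled Zc3h18, had an r of 0.88 and a TGFB_EV difference of -0.16 (adjusted p = 0.789 by edgeR). Rps2 and Ndufb10 share the Caskin1 row, and the 27 other rows that met genes of complex I were looked at after its values were seen. For TGFB_EV, 22 were tested and 0 called, where 0.0380% of all rows were called. Their differences ran from -0.34 to 0.30 with a median of -0.03, beside a median of -0.0010 over all rows. Which gene the difference of the Caskin1 row comes from was not tested.

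**Figure D4:**
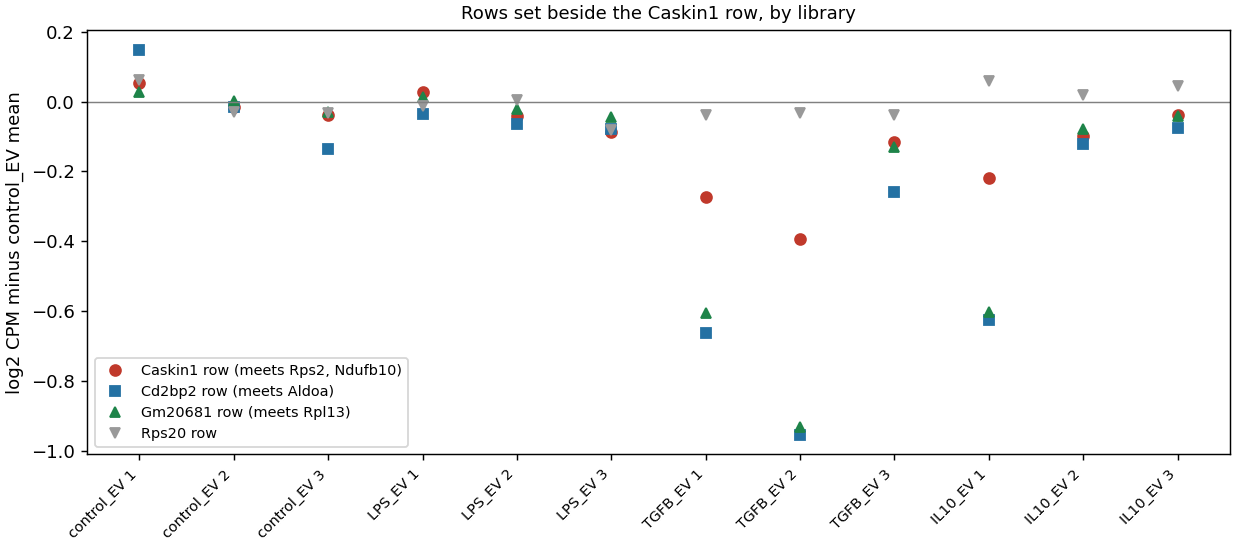
log2 CPM of the Caskin1, Cd2bp2, Gm20681 and Rps20 rows in each of the 12 libraries, as the difference from the mean of the 3 control_EV libraries of the same row (vertical axis); each point is 1 library. TGFB_EV replicates 1 and 2 and IL10_EV replicate 1 are lowest in the Caskin1, Cd2bp2 and Gm20681 rows, while the Rps20 row stays within 0.1 of its control_EV mean in all libraries.

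The rows most like the other 4 had lower r values. For Pabpc1 they were CT025671.3 (met Rab12, r = 0.88), Tcf7l1 (met Retsat and Tgoln1, 0.87) and Ccdc42os (met Pik3r5, 0.85). For Rpl30 they were Gm11792 (met Csnk1d, 0.84), Srpr (met Dcps, 0.83) and ENSMUSG00002076081 (0.80). For Rps20 they were A530010L16Rik (met Afg3l1, 0.90), Sem1 (met its own gene, a proteasome subunit, 0.88) and Gm13136 (0.86). For the Dennd5a row they included AC166821.1 (met Srbd1, 0.87) and Dnah17 (met Pgs1, 0.84). None of the rows named here met a ribosomal protein gene, and with levels this even over the libraries the r values describe small variation.

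The other ribosomal protein rows, by the gene their displaced exons met, gave 0 called of 31 tested for LPS_EV, 32 for TGFB_EV and 32 for IL10_EV, where 0.817%, 0.0380% and 0% of all rows were called, so that these counts do not set the rows apart from others. For LPS_EV, 25 of 31 differences were below 0 with a median of -0.03, against 49.5% of all rows below 0 and a median of 0.0018 over all rows. For TGFB_EV, 18 of 32 were below 0 with a median of -0.02, and for IL10_EV 16 of 32 with a median of 0.0002. Among the most abundant were Nbr1 (met Rpl27 and 3 neighbours, 3779 CPM), Gm47093 (met Rps26, 3517 CPM) and BC030499 (met Rpl23a, 3342 CPM), whose TGFB_EV differences were -0.03, 0.01 and 0.07. Rows labelled with ribosomal protein genes gave 0 called of 30 tested for LPS_EV, likewise beside 0.817% of all rows.

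**Figure D5:**
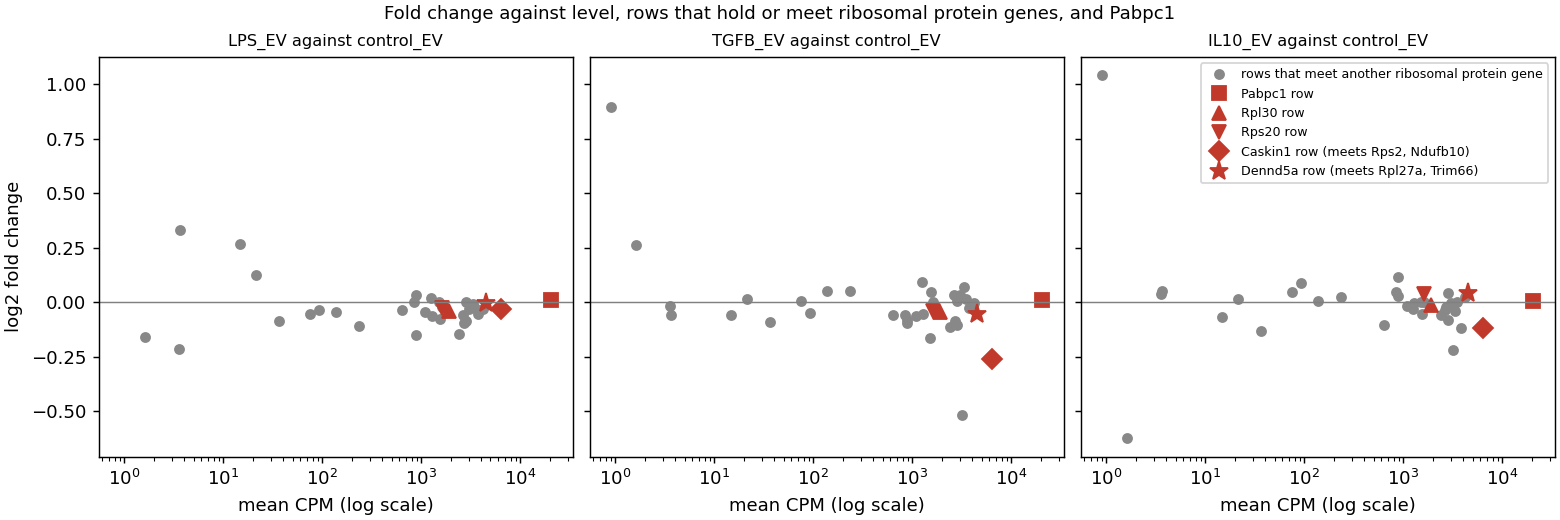
log2 fold change against control_EV (vertical axis) by mean CPM (horizontal axis, log scale) for rows that met other ribosomal protein genes (grey) and the 5 rows described (red symbols), in 1 panel for each treatment. For TGFB_EV the Caskin1 row (-0.26) and the grey Gm20681 row that met Rpl13 (-0.52) lie lowest among rows over 1000 CPM.

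Translation factors deliver tRNAs to the ribosome (elongation) or bring mRNA and subunits together (initiation). Of 28 rows that met their genes, 26 were tested and 0 called in each comparison. Of all rows, 0.817%, 0.0380% and 0% were called for LPS_EV, TGFB_EV and IL10_EV against control_EV and 0% between treatments. The count of 0 therefore does not set these rows apart from others. The median difference of the 26 rows was -0.06 for LPS_EV (18 of 26 below 0), 0.06 for TGFB_EV (5 of 26 below 0) and 0.01 for IL10_EV (8 of 26 below 0). Over all rows the medians were 0.0018, -0.0010 and 0.0021, with 49.5%, 50.2% and 49.3% below 0. Between LPS_EV and TGFB_EV, 21 of 26 were below 0 with a median of -0.09, against 48.5% of all rows. The most abundant were Zbtb4 (4899 CPM), Hmg20b (4038 CPM), Eif3a (2286 CPM) and Csad (2145 CPM). Zbtb4 met Eif4a1, the helicase of the cap complex, but also Senp3 and Mpdu1. Hmg20b met Eef2, the translocation factor, beside Dapk3 and 4930442H23Rik. Eif3a met its own gene and Nanos1, and Csad met Eif4b and Tns2. Reads of genes met by the same row cannot be told apart. In the order given, the TGFB_EV differences of these rows were 0.03, 0.03, 0.10 and -0.06. These comparisons share the control_EV or treatment libraries.

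Rows that met genes of poly(A) binding and of the control of TOP mRNAs numbered 20, of which 18 were tested and 0 called in any comparison. Of all rows, 0.817%, 0.0380% and 0% were called for LPS_EV, TGFB_EV and IL10_EV against control_EV and 0% between treatments. The count of 0 therefore does not set these rows apart from others. The median difference of the 18 rows was -0.0067 for LPS_EV, 0.04 for TGFB_EV and -0.0090 for IL10_EV, near the medians over all rows. The most abundant were Pitpnm1 (1149.96 CPM), Macf1 (948 CPM), Gemin5 (364 CPM) and Adgrg1 (318 CPM). Pitpnm1 met Rps6kb2, an S6 kinase, but also Coro1b and Ptprcap. Macf1 met Pabpc4, a relative of Pabpc1, its own gene, Heyl and Bmp8a. Gemin5 met Larp1, which binds TOP mRNAs. Adgrg1 met Cnot1, the scaffold of the deadenylase complex, and Ndrg4. Reads of genes met by the same row cannot be told apart. In the order given, the TGFB_EV differences of these rows were -0.07, -0.02, 0.06 and 0.03, and the LPS_EV differences -0.04, 0.03, 0.02 and 0.08.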

How the data were processed

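The 12 libraries were made from BV2 cells; per the labels' protocols cDNA was made with SMART-Seq and Nextera XT kits, which do not mark strand, so the strand of a read is unknown. Raw counts for each Ensembl gene ID were deposited by the authors, in 4 tables, of which 3 were used, since a pair was identical; the control_EV columns were the same in each. DESeq2 was used per the submitters' processing notes; for the aligner, counter, build and annotation the entry is "not given in the sources used here".

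The test was edgeR's quasi-likelihood F test (edgeR 4.0.16, R 4.3.3) after TMM scaling and filterByExpr (minimum count 10), with a threshold of 0.05 on the Benjamini-Hochberg adjusted p over all rows tested, on 6 libraries for comparisons with control_EV and on 12 for pairs of treatments. Levels of lists and of rows that met a list gene are CPM of the library total without TMM. Reads carry no molecular identifiers, so floors cover counting error only.

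Displacements were fitted per chromosome from mean levels, without group labels, on GENCODE M21 positions, in steps of 100 bp up to 1000 kb, and each change cost a penalty of 15. Of 50445 rows placed, 93.3% lay in supported stretches (score at least 5 above the best displacement over 100 steps away); among the 6923 such rows with 5 CPM or more, 84.4% met protein-coding exons and 16.0% the gene of their label. Matches are estimates. Both procedures were tested on simulated data. DESeq2 1.42.0 and other filters, scalings and fits were alternatives.

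The rows and lists were chosen with earlier results of these data known. Named beside the 5 rows are, for each, the 3 rows of at least 20 CPM with the highest Pearson r of log2 CPM (prior count 2), and for each list the called rows or else up to 4 of the most abundant; 2 rows that this rule names are not reported here.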

Additional observations from a re-analysis of the deposited data

How the results depend on the processing

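Of 360 recomputed differences of the 5 rows, 322 kept their direction and their side of the threshold, 34 had the opposite sign, none of these larger in size than 0.064 on the log2 scale, and 4 were newly called. All 4 were the Caskin1 row. With no low-count filter 1 of the 5 rows was called for TGFB_EV against control_EV and 1 for LPS_EV against TGFB_EV (0.21, adjusted p = 0.00386 by edgeR), and leaving out single libraries the number called ran from 0 to 1 in both and stayed 0 in the other 4 comparisons. Over all rows with no filter, 0.499% of 22249 were called for TGFB_EV against control_EV and 1.37% of 24860 for LPS_EV against TGFB_EV. Signs turned for Dennd5a in LPS_EV against control_EV (0.0015 with at least 20 counts in 3 libraries), for Rpl30 in LPS_EV against TGFB_EV (-0.00031 with DESeq2, -0.0041 with no filter) and for Pabpc1 in LPS_EV against IL10_EV (-0.00026 with DESeq2 size factors, -0.0026 with DESeq2, -0.016 with no filter, -0.00038 in the fit of the 6 libraries) and in TGFB_EV against IL10_EV (-0.0026 with no filter). Without single libraries, differences ran from -0.020 to 0.020 for Dennd5a in LPS_EV against control_EV. For Pabpc1 they ran from -0.020 to 0.036 (LPS_EV), -0.017 to 0.036 (TGFB_EV) and -0.023 to 0.033 (IL10_EV) against control_EV, and from -0.037 to 0.016 (LPS_EV and TGFB_EV), -0.030 to 0.023 (LPS_EV and IL10_EV) and -0.0084 to 0.021 (TGFB_EV and IL10_EV) between treatments. For Rpl30 they ran from -0.088 to 0.037 (LPS_EV), -0.095 to 0.030 (TGFB_EV) and -0.058 to 0.064 (IL10_EV) against control_EV and from -0.017 to 0.032 between LPS_EV and TGFB_EV. For Rps20 they ran from -0.045 to 0.0043 (LPS_EV against control_EV) and from -0.017 to 0.033 (LPS_EV against TGFB_EV). The cause was not tested. With a lone library left out, the remaining 2 of a group give its spread.

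Over all rows, the 86 calls for LPS_EV against control_EV (29 lower) became 119 with DESeq2 (79 lower), 165 with no filter (72 lower), 0 in the fit of 12 libraries and 18 to 127 without single libraries. The 4 calls for TGFB_EV became 17 with DESeq2, 111 with no filter, 0 in the fit of 12 libraries and 0 to 419 without single libraries. With no filter the 0 calls for IL10_EV became 22, and those between treatments 340, 18 and 160 (LPS_EV and TGFB_EV, LPS_EV and IL10_EV, TGFB_EV and IL10_EV), beside 98, 1 and 9 with DESeq2; 120 rows were called between LPS_EV and TGFB_EV in the fit of their 6 libraries and 0 to 134 without single libraries. The replicate numbers are not stated to pair the libraries. Deviations of same-numbered libraries had correlations from -0.171 to 0.0857. For IL10_EV against control_EV each lay above the highest correlation with another number, and for TGFB_EV against control_EV each lay below it. These small values do not settle whether the numbers pair libraries. With the replicate number as a block, 0 of the 5 rows were called, the Caskin1 row differed by -0.26 for TGFB_EV (adjusted p = 0.649 by edgeR), and the calls over all rows became 209 for LPS_EV (97 lower), 3 for TGFB_EV and 3 for IL10_EV against control_EV and 2 between LPS_EV and TGFB_EV.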

Other observations

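Mitochondrial ribosomal proteins build the separate ribosomes of mitochondria. Of 35 rows whose displaced exons met their genes, 27 were tested and 0 called in each of the 6 comparisons, beside 0.817%, 0.0380% and 0% of all rows for LPS_EV, TGFB_EV and IL10_EV against control_EV and 0% between treatments. Their median log2 difference was 0.0014 for LPS_EV, 0.02 for TGFB_EV and 0.05 for IL10_EV against control_EV, with 13, 13 and 10 of 27 below 0; over all rows the medians were 0.0018, -0.0010 and 0.0021, with 49.5%, 50.2% and 49.3% below 0. The most abundant were Igf2r (met Mrpl18 among others, 1474 CPM), Ryr1 (met Mrps12 among others, 867 CPM), Alyref (met Mrpl12 and Hgs, 355 CPM) and Rbsn (met Mrps25 among others, 200.2 CPM), and their LPS_EV differences were -0.02, -0.04, -0.11 and -0.08.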
